A study of Mus musculus with 6 samples.

Results

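The CDK inhibitor genes are 7 genes of the mouse genome, Cdkn1a, Cdkn1b, Cdkn2a, Cdkn2b, Cdkn2c, Cdkn2d and Cdkn3, found by symbol among the 11922 genes of a count table of CD8+ T cells, and all 7 passed the low-count filter that left 11759 genes to be tested. Splenic CD8+ T cells of C57BL6/J mice were stimulated through CD3 and CD28 with antibody-coated beads for 72 hours, then washed and grown for 4 more days, with recombinant human IL-2 at 100 units/ml in both steps. Throughout the 7 days the cultures held either water, the vehicle, or 0.25 mM AOA (aminooxyacetic acid), a compound that blocks enzymes using the vitamin B6 cofactor pyridoxal phosphate, among them transaminases. There were 3 libraries per group, and the labels give the same mouse donor numbers, 1 to 3, in both groups, so vehicle 1 and AOA 1 are cells of mouse 1. The comparison asks how the transcripts of these inhibitors, and the balance of their families, differed after a week in AOA.

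Cyclin-dependent kinases (CDKs) drive the cell through its cycle when bound to cyclins, and CDK inhibitors hold them back. The INK4 proteins, encoded by Cdkn2a (p16Ink4a), Cdkn2b (p15Ink4b), Cdkn2c (p18Ink4c) and Cdkn2d (p19Ink4d), bind CDK4 and CDK6 and keep D-type cyclins off them, whereas the CIP/KIP proteins, encoded by Cdkn1a (p21Cip1) and Cdkn1b (p27Kip1), bind cyclin-CDK complexes and inhibit those with CDK2 in particular. Cdkn3 belongs to neither family: it encodes KAP, a phosphatase that acts on CDK2 and CDK1. In T cells p27Kip1 is high at rest and removed on stimulation, and p18Ink4c limits the division of lymphocytes.

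With AOA, 2 of the 7 genes were higher, 3 were lower and 2 did not pass the test. Cdkn2c and Cdkn3 rose, Cdkn1b, Cdkn2a and Cdkn2b fell, and Cdkn1a and Cdkn2d were not called in either direction. The change was widespread among all genes: 53.0% of those tested passed an adjusted p of 0.05 in the edgeR quasi-likelihood test, 26.2% as raised and 26.8% as lowered, so 5 of 7 called has to be read against a majority of all genes and says nothing particular to the inhibitors. The libraries of the groups did not overlap for 5 of the 7 inhibitors, against 62.1% of all genes tested. The median log2 fold change was -0.19 over the inhibitors and -0.02 over all genes tested.

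The libraries held 12881962 to 18934869 counts with vehicle and 18696114 to 21997078 with AOA. Markers of CD8 T cells were abundant in every library, with 8 of 8 in the table and a summed level of 5585 to 6307 CPM (counts scaled to library size) with vehicle and 7196 to 8032 CPM with AOA. Markers of CD4 T cells, 4 of 4 in the table, summed to 158 to 210 CPM with vehicle and 33.0 to 54.3 CPM with AOA. Of these Cd4, Cd40lg and Zbtb7b fell, and Foxp3, at a mean of 13.3 CPM with vehicle and 17.1 CPM with AOA, was not called. For myeloid cells 5 of 12 markers were in the table and summed to 78.3 to 111 CPM against 5.19 to 10.04 CPM, mostly from Itgam, Itgax and Cd68, while Lyz2 averaged 0.106 CPM with vehicle and 0.513 CPM with AOA and Cd14 averaged 0.773 and 0.0176 CPM, both too low to be tested. For NK cells 3 of 5 markers were in the table, at 145 to 308 CPM with vehicle, highest in vehicle 2, and 128 to 213 CPM with AOA, a sum made up mostly of Eomes, which CD8 T cells also express and which was not called. The NK receptor gene Klrb1c fell from 57.7 ± 47.7 to 7.14 ± 3.84 CPM (SD, n = 3; log2 fold change -3.02, adjusted p = 0.00310). For B cells 5 of 7 markers summed to 13.9 to 18.4 CPM against 23.1 to 30.9 CPM, and none of 5 erythroid markers was in the table. The part that other cell types played in the results was not tested. These are bulk samples, in which fewer cells that express a gene and less RNA of it per cell cannot be told apart. Vehicle 2 stood apart from the other vehicle libraries on the second principal component, at -44.2 against 21.9 and 19.4, and fold changes that rest on it are given with and without it.

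Cdkn2c encodes p18Ink4c, an INK4 inhibitor of CDK4 and CDK6. Its level was 25.3, 25.1 and 31.9 CPM in vehicle 1 to 3 and 84.3, 77.1 and 104 CPM in AOA 1 to 3. All 3 AOA libraries lay above all 3 vehicle libraries, and the vehicle libraries were close together. The mean rose from 27.4 ± 3.87 to 88.5 ± 14.0 CPM (SD, n = 3), a log2 fold change of 1.69 (SE 0.17, adjusted p = 7.14e-05). Within the mice the log2 difference was 1.73, 1.61 and 1.70, the narrowest spread among the 7 genes.

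Cdkn2c lies on chromosome 4 at chr4:109660876-109666756, minus strand (RefSeq, GRCm38.p6), and has a pair of annotated starts. The promoter window of its upstream start, 250 bases before to 50 after, is shown because Cdkn2c was the INK4 gene that rose. This window of chr4:109666707-109667006 is GC-rich (73.3% G and C) and holds 4 matches to the GC box GGGCGG, searched on both strands and found in 35.7% of 32851 such windows, here printed without capitals. It holds no match to 4 spellings of the E2F motif, to the CHR motif TTTGAA, to CCAAT, to the FOXO motif TGTTTAC or to the p53 decamer, the motifs that capitals mark in every sequence given here.
Cdkn2c upstream start: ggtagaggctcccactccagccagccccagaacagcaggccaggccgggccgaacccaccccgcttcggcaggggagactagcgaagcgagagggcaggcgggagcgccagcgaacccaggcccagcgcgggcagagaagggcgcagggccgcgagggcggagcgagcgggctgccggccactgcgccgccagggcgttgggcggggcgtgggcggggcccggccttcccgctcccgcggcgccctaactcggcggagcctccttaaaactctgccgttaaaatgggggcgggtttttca
The window of the downstream start has 1 CCAAT, 8 bases past the start. In the whole-genome set CCAAT occurred in 37.4% of windows.

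Cdkn2d encodes p19Ink4d, the INK4 protein whose transcript was the most abundant of the family per kilobase of gene length in every library. In CPM not divided by length, Cdkn2c was slightly higher in AOA 3, at 104 against 102 CPM. Its level was 90.8, 75.3 and 93.2 CPM in the vehicle libraries and 136, 88.7 and 102 CPM in the AOA libraries. The groups overlapped, since AOA 2 lay below vehicle 1 and vehicle 3. The means were 86.4 ± 9.74 and 109 ± 24.2 CPM (SD, n = 3), and the log2 fold change of 0.33 (SE 0.18) did not pass the test, with an adjusted p of 0.139. AOA was higher in 3 of 3 mice, by log2 differences of 0.58, 0.24 and 0.13. Under the 16 alternatives the value ran from 0.15 to 0.47 with an adjusted p of at least 0.0640.

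Cdkn2a and Cdkn2b are neighbours on chromosome 4, at chr4:89274473-89294619 and chr4:89306289-89311032, both on the minus strand, with 11669 bases between them. Cdkn2a has distinct starts for p16Ink4a, an INK4 protein, and for p19Arf, which stabilises p53 and is no CDK inhibitor, and a count per gene cannot tell their transcripts apart. The windows of both starts are printed because they differ in make-up, with capitals on the motifs named above. The window of the p19Arf start is chr4:89294570-89294869 and that of the p16Ink4a start is chr4:89282143-89282442.
Cdkn2a, p19Arf start: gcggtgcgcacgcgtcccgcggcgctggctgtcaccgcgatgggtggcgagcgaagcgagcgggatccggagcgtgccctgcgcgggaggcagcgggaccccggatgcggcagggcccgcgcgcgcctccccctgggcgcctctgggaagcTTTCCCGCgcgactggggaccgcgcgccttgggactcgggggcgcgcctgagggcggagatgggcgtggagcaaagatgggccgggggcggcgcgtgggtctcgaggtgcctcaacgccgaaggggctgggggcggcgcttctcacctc
Cdkn2a, p16Ink4a start: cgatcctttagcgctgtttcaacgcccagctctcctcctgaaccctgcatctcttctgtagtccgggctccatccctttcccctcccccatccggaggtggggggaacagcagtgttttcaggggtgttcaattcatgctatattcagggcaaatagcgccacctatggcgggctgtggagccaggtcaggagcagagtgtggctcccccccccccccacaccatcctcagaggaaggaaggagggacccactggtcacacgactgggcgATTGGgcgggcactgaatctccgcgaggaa
The p19Arf window holds 1 E2F match, TTTCCCGC, 99 bases before the start, where 2.26% of all windows held any of the spellings TTTGGCGC, TTTCCCGC, TTTGCCGC or TTTCGCGC. The p16Ink4a window, with 60.3% G and C against 77.0%, holds none of these and 1 CCAAT on the opposite strand, which overlaps a GC box. A match of letters is a description and not a site of binding.

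The Cdkn2a counts were 83, 385 and 202 in vehicle 1 to 3 and 101, 80 and 63 in AOA 1 to 3. Scaled to library size these were 6.59, 24.4 and 11.0 CPM against 4.64, 4.23 and 3.18 CPM. The AOA libraries lay below every vehicle library, and vehicle 2 stood at 2.23 times the higher of the other vehicle libraries. Cdkn2a fell from 14.0 ± 9.29 to 4.02 ± 0.755 CPM (SD, n = 3), with a log2 fold change of -1.80 (SE 0.43, adjusted p = 0.00686). The log2 difference was -0.49, -2.50 and -1.75 in mouse 1, 2 and 3. Without vehicle 2 the fitted log2 fold change was -1.10 and still passed the test (adjusted p = 0.00773).

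Cdkn2b, which encodes p15Ink4b, an inhibitor induced by TGF-beta in many cells, had counts of 50, 421 and 101 with vehicle and 45, 38 and 22 with AOA. These were 3.97, 26.7 and 5.48 CPM against 2.07, 2.01 and 1.11 CPM. Again the groups did not overlap, and vehicle 2 was 4.87 times the higher of the other vehicle libraries. The mean fell from 12.05 ± 12.7 to 1.73 ± 0.537 CPM (SD, n = 3), with a log2 fold change of -2.80 (SE 0.69, adjusted p = 0.00779). The log2 difference was -0.90, -3.66 and -2.20 in the 3 mice, and without vehicle 2 the fitted log2 fold change was -1.42 (adjusted p = 0.00479). The size of the fall of both genes thus depended on vehicle 2, and their direction and call did not. Summed myeloid markers were 102, 111 and 78.3 CPM and summed NK markers 175, 308 and 145 CPM in vehicle 1 to 3. Klrb1c alone was at 15.8, 42.3 and 7.65 CPM per kilobase in vehicle 1 to 3 and 2.65, 4.20 and 1.28 in AOA 1 to 3, highest in vehicle 2 like Cdkn2a and Cdkn2b, and Ncr1, which defines NK cells, was at 0, 1.60 and 0 CPM per kilobase in vehicle 1 to 3 and 0.157, 0.397 and 0.103 in AOA 1 to 3. The part of these cell types in the fall of Cdkn2a and Cdkn2b was not tested. The next gene beyond Cdkn2a, Mtap, a methionine salvage enzyme 93382 bases away, rose by a log2 fold change of 1.60 (adjusted p = 7.60e-05).

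Cdkn1b encodes p27Kip1 and had the highest mean level per kilobase of the CDK inhibitors with vehicle. Its level was 266, 157 and 238 CPM with vehicle and 111, 72.6 and 81.5 CPM with AOA. Every AOA library lay below every vehicle library, and vehicle 2 was the lowest of the vehicle libraries. The mean fell from 220 ± 56.5 to 88.5 ± 20.2 CPM (SD, n = 3), with a log2 fold change of -1.32 (SE 0.23, adjusted p = 0.00130). The log2 difference was -1.26, -1.11 and -1.54 in the 3 mice.

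Cdkn1b lies at chr6:134920401-134925525 on the plus strand. Its promoter window, chr6:134920151-134920450, is shown as that of the CIP/KIP gene that fell, and holds 3 CCAAT matches, of which the last is on the opposite strand.
Cdkn1b: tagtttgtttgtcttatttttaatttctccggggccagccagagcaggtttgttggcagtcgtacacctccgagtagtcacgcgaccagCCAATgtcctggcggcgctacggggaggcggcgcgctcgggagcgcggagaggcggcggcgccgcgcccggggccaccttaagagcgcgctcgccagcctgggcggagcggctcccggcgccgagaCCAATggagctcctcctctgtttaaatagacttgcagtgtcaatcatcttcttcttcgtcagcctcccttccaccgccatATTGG
FOXO factors are known activators of Cdkn1b. The letters TGTTTAC were in none of the 10 windows of the 7 genes and in 3.65% of all windows. That says only that these letters are not in these windows. The genes on either side of Cdkn1b, Gpr19 and Apold1, had log2 fold changes of -0.06 and 0.70 and did not pass the test (adjusted p = 0.826 and 0.108).

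Cdkn1a encodes p21Cip1, the CDK inhibitor that p53 induces. Its level was 56.4, 217 and 73.2 CPM with vehicle and 81.3, 122 and 101 CPM with AOA. The groups overlapped: vehicle 2 was above every AOA library, at 2.96 times the higher of the other vehicle libraries, and those others were below every AOA library. The means were 115 ± 88.2 and 101 ± 20.1 CPM (SD, n = 3), with a log2 fold change of -0.19 (SE 0.43, adjusted p = 0.733). AOA was higher by log2 differences of 0.53 and 0.46 in mouse 1 and mouse 3, and mouse 2 went the other way, at -0.83. Without vehicle 2 the log2 fold change was 0.68 and passed the test (adjusted p = 0.0157), so neither the direction nor the call for Cdkn1a held without that library. With the mouse as a replicate block the value was 0.0523 (adjusted p = 0.880).

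Cdkn1a lies at chr17:29090979-29100722 on the plus strand. The window of its upstream start, chr17:29090729-29091028, is shown because it holds matches to the p53 decamer, of which p53 target sites hold a pair. Of all windows 8.36% held at least 1 match. Capitals mark 2 matches, 73 and 51 bases before the start.
Cdkn1a upstream start: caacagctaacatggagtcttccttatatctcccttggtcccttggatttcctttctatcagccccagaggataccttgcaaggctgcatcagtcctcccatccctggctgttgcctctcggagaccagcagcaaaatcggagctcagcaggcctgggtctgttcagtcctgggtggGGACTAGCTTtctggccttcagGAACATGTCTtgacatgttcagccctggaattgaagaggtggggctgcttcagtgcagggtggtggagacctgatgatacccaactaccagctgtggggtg
The only other decamer match among the 10 windows was 1 in Cdkn2d. The window of the downstream Cdkn1a start had none and 2 GC boxes. A transcript of the opposite strand, AC167363.2, overlaps Cdkn1a in the GENCODE annotation, and the sources used here do not say whether counting used strand.

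Cdkn3, the phosphatase that dephosphorylates CDK2, had counts of 73, 77 and 148 with vehicle and 646, 372 and 504 with AOA, or 5.79, 4.88 and 8.03 CPM against 29.7, 19.7 and 25.4 CPM. All AOA libraries lay above all vehicle libraries. The mean rose from 6.24 ± 1.62 to 24.9 ± 5.04 CPM (SD, n = 3), a log2 fold change of 1.99 (SE 0.24, adjusted p = 0.000198), the largest rise of the 7. The log2 difference was 2.34, 1.99 and 1.65 in the 3 mice.

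Cdkn3 lies at chr14:46760461-46771530 on the plus strand. Its window, chr14:46760291-46760590, is shown because CHR and CCAAT motifs are known from promoters of genes used in late cell cycle phases. It holds 4 CCAAT matches, at -149, -92, -34 and 10 bases from the start, and 1 CHR match on the opposite strand at -111, a motif in 17.9% of all windows.
Cdkn3: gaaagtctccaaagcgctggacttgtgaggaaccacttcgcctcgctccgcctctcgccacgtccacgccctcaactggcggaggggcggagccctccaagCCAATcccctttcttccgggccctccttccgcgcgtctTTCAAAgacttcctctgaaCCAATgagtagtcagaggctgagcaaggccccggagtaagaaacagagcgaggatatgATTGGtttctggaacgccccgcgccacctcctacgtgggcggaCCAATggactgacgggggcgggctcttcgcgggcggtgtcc
The window of Cdkn2b, which fell, also holds a CHR match, at -161. Cnih1, 4036 bases beyond Cdkn3, rose as well, by a log2 fold change of 1.38 (adjusted p = 0.00426).

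**Figure D1:**
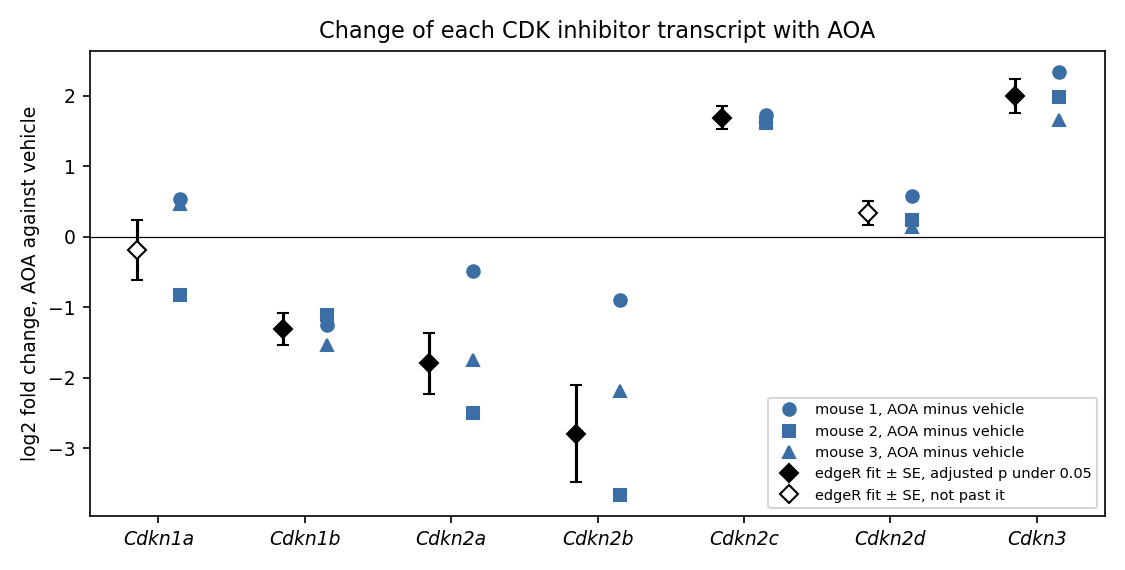
Log2 fold change of AOA against vehicle for each CDK inhibitor gene, as the edgeR fit with its standard error (diamonds, filled where the adjusted p was under 0.05) and as the difference within each of 3 mice. Cdkn2c is tight around 1.69, Cdkn2a and Cdkn2b spread widely below 0, and mouse 2 stands on the other side of 0 from mouse 1 and mouse 3 for Cdkn1a.

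To compare levels between genes, CPM was divided by gene length in kilobases. With vehicle the order by mean CPM per kilobase was Cdkn1b at 91.6, Cdkn2d at 68.0, Cdkn1a at 56.7, Cdkn2a at 12.3, Cdkn2c at 12.2, Cdkn2b at 8.65 and Cdkn3 at 8.07. Between neighbours in this order only Cdkn1a and Cdkn2a had library ranges that did not overlap, so that the 3 abundant genes were set apart from the 4 scarce ones. With AOA the order was Cdkn2d at 85.7, Cdkn1a at 49.7, Cdkn2c at 39.3, Cdkn1b at 36.8, Cdkn3 at 32.2, Cdkn2a at 3.54 and Cdkn2b at 1.24. Here the ranges did not overlap between Cdkn2d and Cdkn1a, between Cdkn3 and Cdkn2a, and between Cdkn2a and Cdkn2b. Cdkn1b moved from the first place to the fourth, and its percentile among all genes by this level went from 93.9 to 80.7. Cdkn2c went from percentile 54.6 to 82.0 and Cdkn3 from 43.4 to 78.2, while Cdkn2b went from 45.3 to 16.2.

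**Figure D2:**
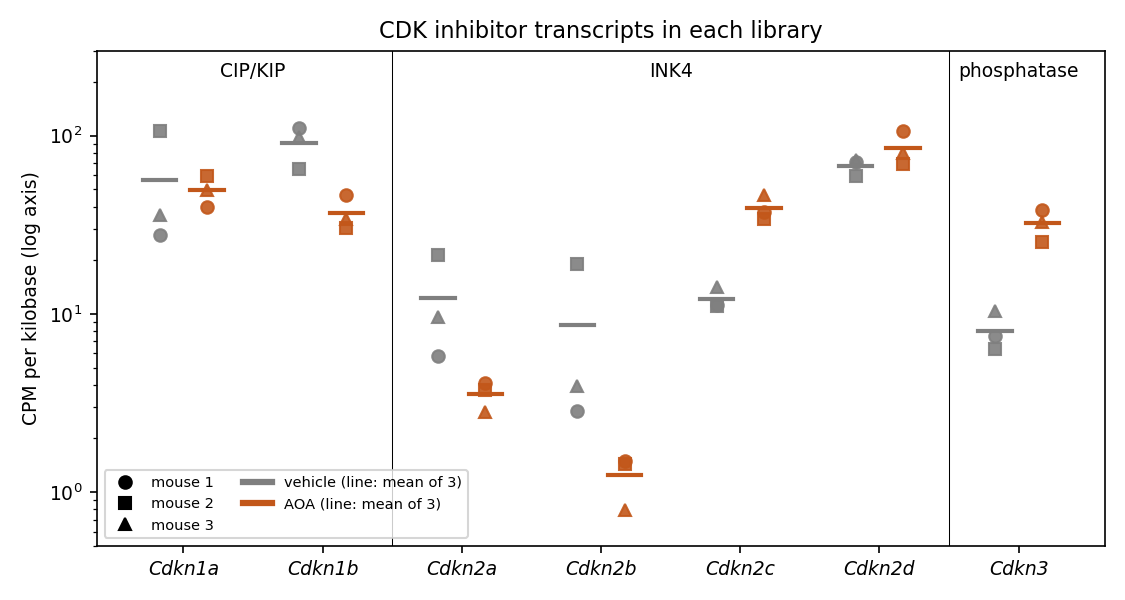
Level of each CDK inhibitor transcript in every library in CPM per kilobase on a log axis, with vehicle in grey, AOA in orange, a marker shape for each mouse and a line at the mean of 3. The square of vehicle 2 stands high for Cdkn1a, Cdkn2a and Cdkn2b and low for Cdkn1b, and Cdkn2c and Cdkn3 separate the groups with AOA on top.

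The families differed in how their summed level moved. The CIP/KIP sum of Cdkn1a and Cdkn1b was 138, 172 and 135 CPM per kilobase with vehicle and 86.2, 89.9 and 83.4 with AOA, means of 148 ± 20.5 and 86.5 ± 3.25 (SD, n = 3). Every AOA library was lower, and with it the make-up shifted. Cdkn1b supplied 80.0%, 38.0% and 73.3% of the sum with vehicle and 53.7%, 33.6% and 40.6% with AOA, so vehicle 2 already lay within the range of the AOA libraries. Cdkn1c, the remaining CIP/KIP gene (p57Kip2), was not among the genes of the count table, so the sum leaves it out.

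The INK4 sum was 91.4, 111 and 101 CPM per kilobase with vehicle and 150, 109 and 130 with AOA, means of 101 ± 9.83 and 130 ± 20.3 (SD, n = 3), and the groups overlapped. Beneath this sum the members went in opposite directions. Cdkn2c supplied 12.3%, 10.03% and 14.0% of the INK4 sum with vehicle and 25.0%, 31.3% and 35.5% with AOA. The share of Cdkn2a and Cdkn2b shrank, from 6.35%, 19.3% and 9.54% to 2.73%, 3.41% and 2.15% for Cdkn2a, and from 3.12%, 17.3% and 3.89% to 0.991%, 1.32% and 0.611% for Cdkn2b. Cdkn2d remained the main INK4 transcript in every library, at 53.4% to 78.2% of the sum with vehicle and 61.8% to 71.3% with AOA.

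The ratio of the CIP/KIP sum to the INK4 sum was 1.51, 1.55 and 1.33 with vehicle and 0.575, 0.823 and 0.640 with AOA. Per kilobase, CIP/KIP transcripts thus outweighed INK4 transcripts in all 3 vehicle libraries and were outweighed by them in all 3 AOA libraries. In CPM not divided by gene length the ratio was 2.55, 2.47 and 2.19 with vehicle and 0.850, 1.13 and 0.865 with AOA, again lower in every AOA library but above 1 in AOA 2. The log2 ratio of group means was -0.78 for the CIP/KIP sum, with -0.84 to -0.66 when each library was left out, and 0.36 for the INK4 sum, with 0.24 to 0.47. Without division by gene length these were -0.82 and 0.54. These sums are a description of transcripts and carry no test.

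**Figure D3:**
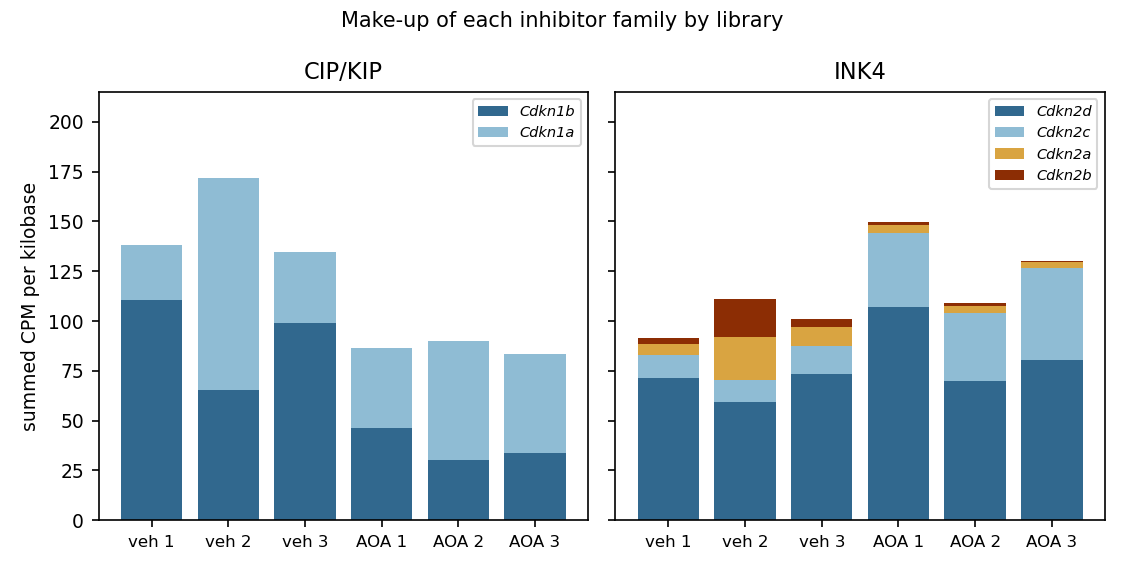
Summed CPM per kilobase of the CIP/KIP genes (left) and the INK4 genes (right) in each of the 6 libraries, stacked by gene. The CIP/KIP bars are lower in every AOA library, at 83.4 to 89.9, and in the INK4 bars the Cdkn2c layer widens with AOA while the Cdkn2a and Cdkn2b layers thin out.

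The kinases and cyclins that these proteins bind went up far more uniformly. Of 12 such genes 11 rose and none fell, with a median log2 fold change of 1.38, whereas 26.2% of all genes tested rose. Cdk4 and Cdk6, the kinases that INK4 proteins bind, rose by log2 fold changes of 1.46 (SE 0.16, adjusted p = 0.000116) and 1.24 (SE 0.28, adjusted p = 0.00541). Of the D-type cyclins Ccnd3 rose by 1.31 and Ccnd2 by 0.74, and Ccnd1, scarce at 1.53 ± 0.374 CPM with vehicle and 1.91 ± 0.333 CPM with AOA (SD, n = 3), did not pass the test. Cdk2, the kinase bound by p21Cip1 and p27Kip1, rose by 1.00 (adjusted p = 0.000422), and its partners Ccne1 and Ccne2 rose by 0.98 and 3.05. The mitotic kinase Cdk1 rose by 2.94 and cyclin A2, Ccna2, by 3.04.

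Set beside the transcripts of kinases they bind, those of each inhibitor family made up a smaller proportion with AOA. The summed level of Cdk4 and Cdk6 was 89.9, 121 and 95.2 CPM per kilobase with vehicle and 309, 256 and 261 with AOA. The INK4 sum amounted to 102%, 91.8% and 106% of it with vehicle and to 48.4%, 42.6% and 49.9% with AOA. The CIP/KIP sum amounted to 464%, 699% and 433% of the summed level of Cdk1 and Cdk2 with vehicle and to 60.3%, 76.4% and 68.5% with AOA. With AOA the CIP/KIP sum was the smaller of the pair only when Cdk1 was included. Of Cdk2 alone the CIP/KIP sum amounted to 741%, 1205% and 868% with vehicle and to 277%, 269% and 260% with AOA, so it still exceeded Cdk2 in every library. None of these ratios overlapped between the groups, and all concern transcripts and not protein or kinase activity.

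**Figure D4:**
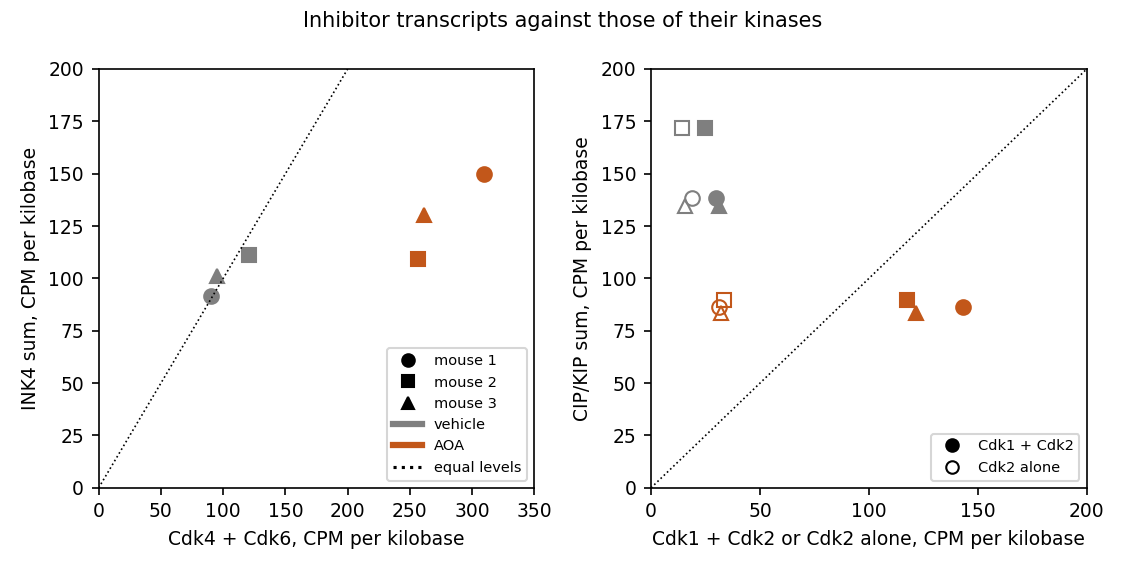
Summed level of each inhibitor family against that of its kinases in CPM per kilobase, 1 point per library, with vehicle in grey, AOA in orange and equal levels as a dotted line; open markers set the CIP/KIP sum against Cdk2 alone. All 3 AOA libraries lie below the line for INK4 and for CIP/KIP against Cdk1 and Cdk2 together, and above it for CIP/KIP against Cdk2 alone.

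The CDK-activating kinase, which phosphorylates CDKs and which KAP counteracts, changed in 1 of 3 subunits, which beside 53.0% of all genes called says nothing particular to it. Cyclin H, Ccnh, rose by a log2 fold change of 0.83 (adjusted p = 0.00148), and Cdk7 and Mnat1, at 0.41 and -0.10, did not pass the test. Without vehicle 2 there were 2 subunits called as raised.

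Genes for the turnover of p21Cip1 and p27Kip1 proteins rose in 8 of 13 cases and fell in 1, with a median log2 fold change of 0.57, beside 26.2% raised and 26.8% lowered among all genes tested. Skp2, the ubiquitin ligase subunit that recognises p27Kip1, went from 2.94 ± 0.751 to 17.1 ± 2.02 CPM (SD, n = 3), a log2 fold change of 2.53 (SE 0.23, adjusted p = 5.21e-05). Its cofactor Cks1b rose by 2.67, and Dtl, which directs p21Cip1 to degradation, rose by 2.85. Rnf123, a subunit of the KPC ligase that acts on p27Kip1 in the cytoplasm, was the gene that fell, by 0.71 on the log2 scale (adjusted p = 0.00167), and the other KPC subunit gene, Ubac1, rose by 0.57 (adjusted p = 0.00599). The cullin genes Cul1, Cul4a and Cul4b did not pass the test, at 0.25, 0.18 and -0.01.

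Of 24 tested genes of the p53 list, 6 rose and 7 fell, with a median log2 fold change of 0.29, shares close to the 26.2% raised and 26.8% lowered over all genes tested. Trp53 itself rose by 0.72 (SE 0.15, adjusted p = 0.00408), and Mdm2, a p53 target that encodes its ubiquitin ligase, was not called at -0.29 (adjusted p = 0.394). Gtse1, a mitotic protein that restrains p53, rose by 2.34 and the nuclease gene Aen by 0.98. The lowered genes included Bbc3, which encodes the death protein PUMA, at -1.79, Ercc5, a repair nuclease, at -1.07 and Ddit4, an inhibitor of mTOR signalling, which went from 180 ± 4.84 to 89.7 ± 4.95 CPM (SD, n = 3, adjusted p = 0.000196). The count of 6 raised genes was 13 without vehicle 2, 10 with the mouse as a replicate block, and 3 without any one of vehicle 1, vehicle 3 or AOA 1.

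Vehicle 2 was at least 1.5-fold higher than both other vehicle libraries in 10 of the 24 p53 genes, among them Mdm2, Ccng1, Zmat3, Phlda3 and Sesn2, as it was for Cdkn1a, Cdkn2a and Cdkn2b. Of all genes tested 8.39% were higher in vehicle 2 by this measure and 8.43% were lower. In the FOXO list it was lower in 7 of 17 genes, as it was for Cdkn1b, and these included Foxo1, Klf2 and S1pr1. The fold of 1.5 was chosen after the values were seen, and the library carries no test of its own.

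Of 17 genes of the FOXO list, 1 rose and 5 fell, with a median log2 fold change of -0.32, against 26.2% and 26.8% of all genes tested, so the lowered share was near the background. Foxo1 and Foxo3, which encode activators of Cdkn1b transcription, were at -0.42 and -0.17 and did not pass the test (adjusted p = 0.163 and 0.374). The lowered genes included Il7r, the receptor of a survival cytokine, at -4.46, Bcl2l11, which encodes BIM, at -1.81 and the egress receptor S1pr1 at -1.03, and Akt1, the kinase that keeps FOXO proteins out of the nucleus, rose by 0.63. Without vehicle 2 there were 9 lowered genes and without AOA 1 there were 3, and without vehicle 3 there were 2 raised genes.

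Polycomb complexes are known to silence Cdkn2a and Cdkn2b. Of 13 genes for these proteins and their partners 3 rose and 3 fell, with a median log2 fold change of 0.00, no larger a share in either direction than the 26.2% and 26.8% of all genes tested. The raised genes were the core of the methyltransferase complex PRC2, with Ezh2 at 1.56 (SE 0.14, adjusted p = 4.81e-05), Eed at 1.00 and Suz12 at 0.80. The lowered genes were Kdm2b at -1.50, the chromodomain subunit Cbx7 at -1.17 and Kdm6b, a demethylase that removes the PRC2 mark, at -1.02. Bmi1, a repressor of Cdkn2a, was at 0.29 and did not pass the test (adjusted p = 0.160).

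TGF-beta signals induce Cdkn2b and Cdkn1a in many cells, and MYC with MIZ1, encoded by Zbtb17, represses them. Of 11 genes 3 rose and 5 fell, with a median log2 fold change of -0.50, where 26.2% of all genes tested rose and 26.8% fell. Tgfbr2, the ligand-binding receptor, fell from 493 ± 151 to 168 ± 18.0 CPM (SD, n = 3), a log2 fold change of -1.55 (SE 0.23, adjusted p = 0.000640). The pathway inhibitors Smad7 and Skil fell, each at -0.89, and so did Zbtb17 at -0.78. Tgfbr1 rose by 0.79, Smad2 by 0.74 and Myc by 0.45 (adjusted p = 0.0331).

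Genes of cell division gave the most uniform list, with 15 of 15 raised, against 26.2% of all genes tested, and a median log2 fold change of 2.44. Ccna2 at 3.04, Birc5, which encodes survivin, at 3.03 and the replication helicase gene Mcm5 at 2.97 led it. Over all 6 libraries many genes had a pattern like that of Cdkn2c and Cdkn3: of 9115 genes with at least 10 CPM in a group, 1661 (18.2%) correlated with Cdkn2c and 1568 (17.2%) with Cdkn3 at a Pearson r of log2 CPM above 0.9. The most alike were Zc3h15, Diaph3 and Chtf18 for Cdkn2c and Ap1m1, Mxd3 and Akip1 for Cdkn3, with r of at least 0.997, and the pair itself had r = 0.98. The points share library, depth and the difference between the groups, so these values describe the 6 libraries only.

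Cdkn1b had 1172 genes (12.9%) above r = 0.9, the closest being Zfp945, Fam120b and Prkra. Cdkn2a and Cdkn2b correlated with each other at r = 0.99, and Cdkn2b was the third closest gene to Cdkn2a, after Rnh1 and Ppp1r3b. Vehicle 2 had the highest level of both genes, at 24.4 and 26.7 CPM, and no r was computed without it. The closest to Cdkn2b were Zfp518a, Tyrobp, an adaptor of myeloid and NK receptors whose log2 fold change was -3.04, and Rnh1. Cdkn1a had the fewest such genes, 58 (0.636%), led by Prepl, Nabp2 and Gtf2h1, and Cdkn2d had 180 (1.97%), led by 0610010K14Rik, Drap1 and Khk.

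**Figure D5:**
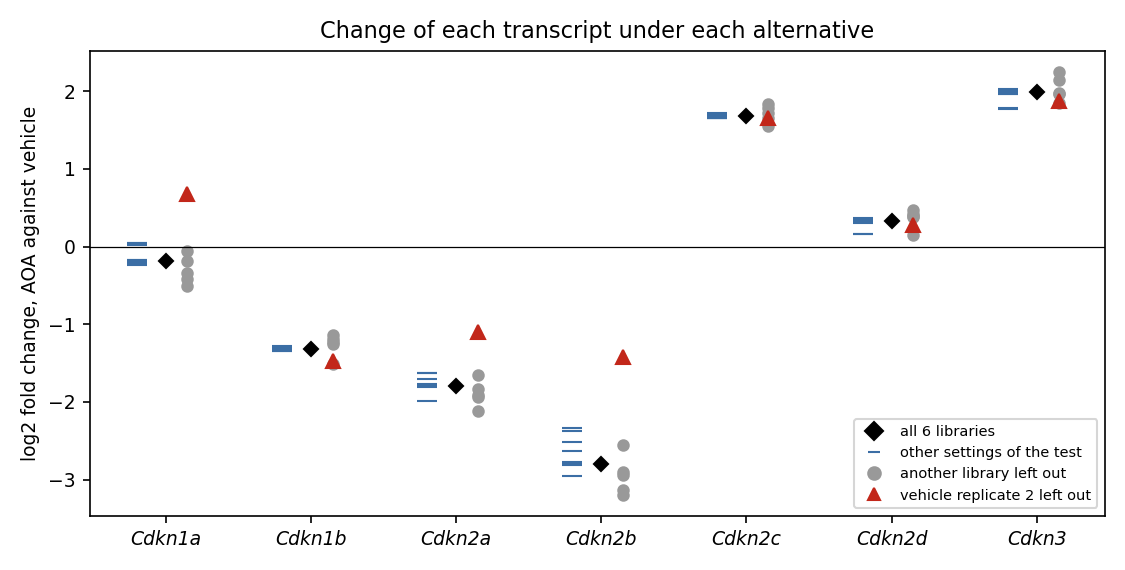
Log2 fold change of each CDK inhibitor gene with all 6 libraries (black), under other settings of the test (blue bars) and with each library left out (grey, or red for vehicle 2). Without vehicle 2 Cdkn1a stands at 0.68 and Cdkn2a and Cdkn2b come closer to 0, at -1.10 and -1.42, while Cdkn1b, Cdkn2c, Cdkn2d and Cdkn3 stay close to their values.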

How the data were processed

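RNA of 6 libraries of mouse CD8+ T cells, 3 per group, was sequenced from stranded mRNA libraries. The submitters' processing notes name bcl2fastq, STAR, featureCounts, DESeq2 and the build mm10. The authors deposited raw counts per gene, not normalised, with gene lengths. The sources used here give no versions of the tools named in these notes, and no annotation or strand setting.

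The filterByExpr function of edgeR 4.0.16, run in R 4.3.3 at a minimum count of 10, left 11759 genes. These were fitted together by the quasi-likelihood method (robust, TMM factors), and p-values were adjusted over all of them by Benjamini and Hochberg's procedure, at a threshold of 0.05. TMM library sizes underlie each CPM, and correlations took log2 CPM at a prior count of 2. The steps were tested on simulated data. Alternatives were DESeq2 1.42.0, limma 3.58.1 (voom), other scalings and filters, a length trend removed, thinning, each library left out and the mouse as a replicate block. Groups and mouse numbers came from the labels. The labels name the same 3 mouse donors in both groups, so differences within mice are given. The main fit took treatment only and was not paired. Within mice, deviations from the group means correlated with r of 0.0868, 0.189 and 0.194, across genes, which are not independent. Chi-square tests of the counts found every pair of replicates to differ beyond sampling noise.

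Members and lists were chosen with earlier results of these data known. Genes outside the 7 were named as those with the largest called change, up to 3 per list and direction, at 10 CPM or more, as genes acting directly on a member, as the 3 most correlated genes, or as neighbours. Other p53 and FOXO genes and Ubac1 were named after their values were seen. Promoter windows of 300 bases and positions came from RefSeq GRCm38.p6, the build called mm10, which matched all 7 genes.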

Additional observations from a re-analysis of the deposited data

How the results depend on the processing

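Under 16 alternatives the calls of Cdkn1b, Cdkn2c and Cdkn3, and of Cdkn2a and Cdkn2b under the 15 that tested them, kept their direction and passed the threshold, and Cdkn2d was never called. The number of CDK inhibitor genes called was 3 when at least 10 CPM in 3 libraries was required, because that filter removed Cdkn2a and Cdkn2b, and 5 to 6 with each library left out. Cdkn1a changed sign to 0.0487 with limma voom (adjusted p = 0.933), 0.0523 in the paired fit with a replicate block (adjusted p = 0.880) and 0.0146 with the length trend removed in a fit with the replicate block (adjusted p = 0.964), and ran from -0.50 to 0.68 with each library left out, the highest without vehicle 2. The cause was not tested. The replicate block changed no member's call, and it called 6292 genes in all, of which 6007 were also called without it.

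Over all genes 4923 to 6796 were called under the alternatives, against 6233. Of 256 recomputed list counts 244 stayed within 1.5 times. The exceptions were in the CDK-activating kinase (1 raised, 2 with the length trend removed or without vehicle 2), p53 and FOXO lists, where the length trend removed gave 3 raised FOXO genes with or without the block. Cdkn2b rested on few counts with AOA, 22 to 45, and the part of library depth in the precision of scarce transcripts was not tested. With 3 libraries per group, p-values cover the spread between these mice and cultures only.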
